A study of Mus musculus with 24 samples.

Results

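Emilin2, Lif, Gnaz, Gpnmb, Adcy6, Mansc1, Hsd17b11, Grhl1 and Nrn1 are 9 of 17871 genes on the array, read by 20 of 25697 probes. They were chosen by the size of their difference between WT and BAF180-deficient Th2 cells, resting or stimulated, on the same arrays described here. Differences between genotypes in Th2 cells are therefore given as a description, without a test. A gene not detected in Th2 cells could not have been chosen, so the states in which these genes are high are partly set by the choice. The questions put to them were in which of 4 cell states each gene is high, and whether growth as Th2 cells or stimulation sets its level.

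BAF180, the product of Pbrm1, is the bromodomain subunit that distinguishes the PBAF form of the SWI/SNF chromatin remodeler from the BAF form. T helper precursors grown with IL-4 turn on the Th2 cytokine genes, and those genes respond again when the cells meet a further signal. The chosen genes belong to several systems: a cytokine (Lif), a matrix glycoprotein (Emilin2), 2 parts of the cAMP pathway (Gnaz, Adcy6), 3 surface or membrane proteins (Gpnmb, Mansc1, Nrn1), a lipid droplet enzyme (Hsd17b11) and a transcription factor (Grhl1).

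CD4+CD62L+ T cells were purified from spleens and lymph nodes of mice 4 to 6 weeks old, to about 95% purity, and RNA was read on 24 Illumina MouseRef-8 v2 arrays, 3 (A, B and C) for each genotype and state. Resting naïve cells were taken as purified, and stimulated naïve cells had 24 h of anti-CD3 at 1 µg/ml with anti-CD28 at 2 µg/ml. Th2 cells came from naïve cells plated on the same antibodies with IL-4 (10 ng/ml) and anti-IFNγ (10 µg/ml) already present, given IL-2 (100 U/ml) 24 h later and expanded in it, and were read at rest or after 1.5 h of PMA (50 ng/ml) and ionomycin (500 ng/ml). BAF180-deficient cells came from mice in which CD4-Cre removes floxed exon 11 of Pbrm1, so deletion begins late in thymic development and is limited to cells that have expressed CD4. The labels give Balb/c as the strain, while the methods describe a mixed B6 and 129 background. The arrays came from 3 pairs of mice, so naïve and Th2 arrays share mice, although no label says that a letter marks the same mouse in each state. The comparisons below share arrays as well and are not independent of each other.

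Values are log2 intensities after background correction and quantile normalization, given for arrays A, B and C in that order, and they are not compared between probes. For each gene the brightest kept probe stands for the gene. A gene is called detected on an array at a detection p of at most 0.02, and a group with no such array is described as not detected. Where a group is not detected, the fold is given as "at least", from the mean of the brighter group against the lowest detected signal of each array or the gene's own signal if higher. Steps between states within 1 genotype are given without a test, because the Th2 values by which the genes were chosen enter them, and the difference between the genotypes' steps follows in part from the choice. Averages over genotypes that include Th2 cells hold the same values, so their p-values are a description partly set by the choice. Calls with 1 genotype alone are given only to show which averages depend on it. A lower signal from fewer cells of a type cannot be told apart from less RNA per cell.

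Pbrm1 checks the genotype labels. At rest, naïve cells gave 8.20, 8.72 and 8.69 in WT against 7.88, 7.28 and 7.41 in BAF180-deficient cells, and Th2 cells gave 9.06, 9.06 and 8.88 against 7.16, 7.23 and 7.02. After stimulation the values were 8.29, 8.76 and 8.67 against 6.36, 7.06 and 7.41 in naïve cells and 8.52, 8.14 and 8.21 against 6.56, 6.90 and 7.15 in Th2 cells. Pbrm1 was thus lower in BAF180-deficient cells in all 4 states with no overlap between genotypes, with differences of −1.01, −1.86, −1.63 and −1.42 log2 in the order given (SE 0.23; limma adjusted p 0.121, 0.00101, 0.00746 and 0.0141). This probe was detected on all 24 arrays. Of the 2 dimmer Pbrm1 probes, 1 was detected on 8 WT and 0 BAF180-deficient arrays and the other on 10 and 2. Where the probes lie relative to the deleted exon is not known.

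Markers of the cell states followed the labels in part. Of 8 Th2 markers kept, the summed linear intensity in naïve cells averaged 543 (WT) and 561 (BAF180-deficient) at rest and 1610 and 1940 after stimulation, and in Th2 cells 1790 and 2250 at rest and 19300 and 20700 after stimulation, where Il4 was the most abundant. Between resting Th2 and stimulated naïve cells 1 Th2 marker was higher (Gata3, 1.01 log2) and 3 lower (Il5, Il13 and Ccr8; −1.51, −1.43 and −0.59), beside 16.5% and 17.3% of all probes. Naïve markers (6 kept of 7; S1pr1 not detected) summed to 5250 and 5450 in naïve cells at rest, 593 and 622 once stimulated, and 4010 and 3160, then 1430 and 1270, in Th2 cells, and 4 of them were higher in resting Th2 than in stimulated naïve cells. Activation markers (4 kept of 6) summed to 7480 and 7270 in resting naïve cells and 4060 and 3420 in stimulated naïve cells: Cd69, the most abundant at rest, and Egr1 fell on stimulation (−1.52 and −1.20), against the labels, while Il2ra and Egr2 rose (3.01 and 2.12). They summed to 625 and 651 in resting and 3980 and 3610 in stimulated Th2 cells. All 4 T cell markers were detected in every group, with sums from 3300 to 8240 by group, and 6 regulatory T cell markers summed to between 1580 and 2950. No gene of any marker list met the criteria for a difference between genotypes in any state.

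Markers of other cells were present in resting naïve samples. Myeloid markers (11 kept of 12; Itgam not detected) summed to 4920, 5150 and 13400 in WT and 5450, 7280 and 7270 in BAF180-deficient resting naïve cells, with Lyz1 the most abundant. B cell markers (7 of 7), led by Cd74, summed to 7260, 5450 and 7680 against 6700, 9330 and 8040. In Th2 cells at rest the myeloid sums were 389, 322 and 304 in WT and 281, 306 and 285 in BAF180-deficient cells, with Adgre1 the most abundant. There Lyz2, Cd14, C1qa, C1qb, Tyrobp and Itgam were not detected in either genotype, while Adgre1, Ctss, Csf1r, Fcer1g and Lyz1 were detected on at least 1 array of each. Of the list Adgre1 alone was higher in resting Th2 than in stimulated naïve cells (1.66 log2, adjusted p 0.0014), where it was not detected. The myeloid sums were 268, 269 and 283 against 272, 243 and 247 in stimulated naïve cells, and 336, 322 and 262 against 287, 279 and 257 in stimulated Th2 cells. B cell sums averaged 826 and 894 in stimulated naïve cells. In Th2 cells they were highest in array C: 630, 287 and 1180 in WT and 649, 497 and 1670 in BAF180-deficient cells at rest, and 438, 290 and 808 against 510, 387 and 1100 after stimulation. The part of B cells in array C values of the chosen genes was not tested. Dendritic markers (2 kept of 4, Batf3 and Siglech) summed to at most 218 by group, CD8 and NK markers (3 kept of 5) to at most 596, and Cpa3, the 1 basophil and mast cell marker kept of 4, to at most 29.8.

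**Figure D1:**
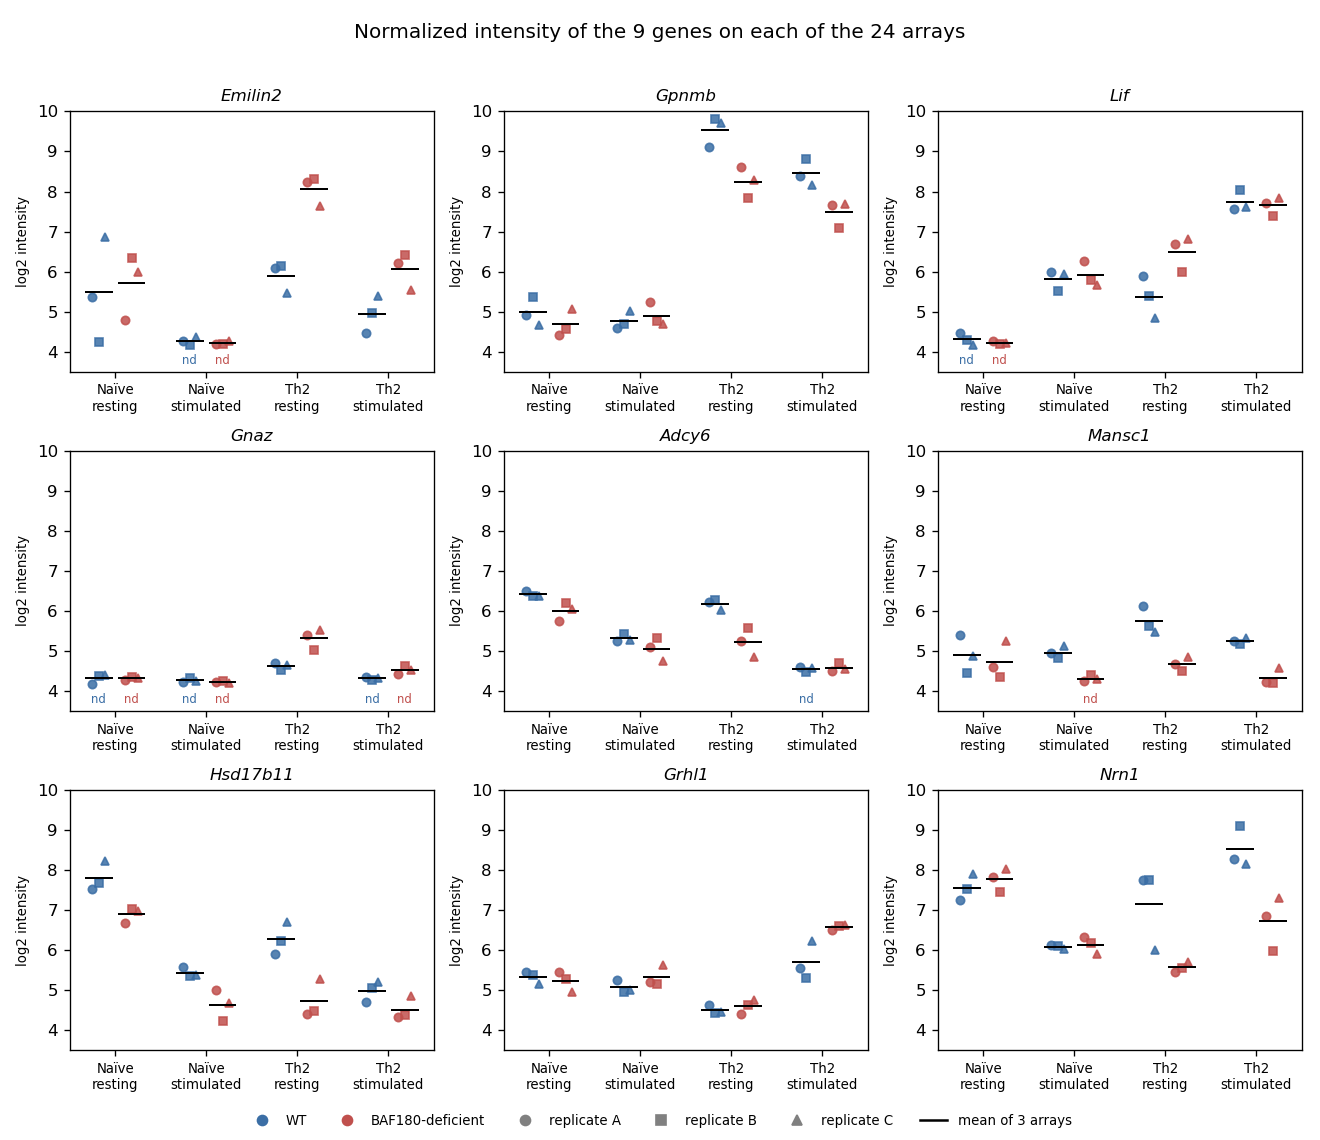
Log2 intensity of the 9 genes on each of the 24 arrays, by cell state (horizontal axis) and genotype (colour). Gpnmb spans the widest range, from 4.41 to 9.82, and Gnaz the narrowest, 1.34 log2.

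Lif, a cytokine of the IL-6 family that signals through Lifr and gp130, rose with stimulation. It was also higher in resting Th2 than in resting naïve cells, though not than in stimulated naïve cells. It was not detected in resting naïve cells of either genotype, and read 5.99, 5.52 and 5.94 in WT and 6.26, 5.80 and 5.67 in BAF180-deficient stimulated naïve cells. Resting Th2 cells gave 5.89, 5.40 and 4.84 in WT and 6.69, 5.98 and 6.81 in BAF180-deficient cells, and stimulated Th2 cells gave 7.57, 8.03 and 7.61 against 7.72, 7.39 and 7.84. Stimulated Th2 cells were therefore highest in both genotypes, above every other state without overlap, and the genotypes separated only in resting Th2 cells, where each BAF180-deficient value lay above each WT value (1.12 log2, 2.17-fold). In WT the order was stimulated Th2, stimulated naïve, resting Th2, resting naïve; in BAF180-deficient cells resting Th2 moved ahead of stimulated naïve, and in both genotypes those 2 neighbours overlapped.

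Averaged over genotypes, Lif rose by 1.59 log2 (SE 0.17, limma adjusted p 8.4e-08, at least 2.04-fold) when naïve cells were stimulated and by 1.76 (adjusted p 4.5e-08, 3.39-fold) when Th2 cells were stimulated. Resting Th2 cells exceeded resting naïve cells by 1.66 (adjusted p 7.9e-08, at least 2.14-fold), and by 1.07 with WT arrays alone, still called. Both values are against signals below detection, and the average holds the Th2 values by which Lif was chosen. Resting Th2 and stimulated naïve cells did not differ on average (0.07, adjusted p 0.83), with steps of −0.44 in WT and 0.58 in BAF180-deficient cells. With an offset of 50 the naïve and Th2-minus-naïve values were 0.79 and 0.87, still called. PMA and ionomycin raised Lif by 2.36 in WT and 1.16 in BAF180-deficient Th2 cells. A second Lif probe gave 1.29 for stimulated naïve cells and 1.62 for stimulated Th2 cells, with 0.89 between resting Th2 cells of the genotypes. The dimmest kept Lif probe gave 0.38 and 1.02 with 0.29 between genotypes, and no call for Th2 against naïve cells at rest (0.29, adjusted p 0.108). Stimulated naïve cells showed no genotype difference in Lif (0.09, SE 0.24). At rest Lif was not detected in naïve cells, so the −0.08 there could not show one. Across the 24 arrays Lif ran closest to Adora2b, Prrc1 and Il4 (Pearson r 0.96 for each).

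Emilin2, an extracellular matrix glycoprotein with an EMI domain, had its highest mean in resting Th2 cells. Its values in resting Th2 cells were 6.09, 6.15 and 5.47 in WT and 8.25, 8.31 and 7.63 in BAF180-deficient cells; stimulated Th2 cells gave 4.46, 4.98 and 5.38 against 6.23, 6.43 and 5.54. All 3 BAF180-deficient values lay above all 3 WT values in each Th2 state, by 2.16 log2 at rest (4.46-fold) and 1.12 after stimulation (2.18-fold). Naïve cells at rest were spread widely, 5.36, 4.23 and 6.87 in WT and 4.80, 6.34 and 5.99 in BAF180-deficient cells, with overlap, and Emilin2 was not detected in stimulated naïve cells. WT array C, the highest of the 3 for Emilin2, also had the highest myeloid sum (13400), and the part of myeloid cells in the naïve values was not tested. Adgre1 was higher in resting Th2 than in stimulated naïve cells, as Emilin2 was, and the part of myeloid cells there was not tested either.

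Emilin2 was higher in resting Th2 than in resting naïve cells by 1.39 log2 (SE 0.33, limma adjusted p 0.00136), with steps of 0.42 in WT and 2.35 in BAF180-deficient cells. This average holds the Th2 values by which Emilin2 was chosen, and with WT arrays alone it was not called (limma adjusted p 0.524). Against stimulated naïve cells the excess was 2.74 (adjusted p 1.1e-06, at least 5.07-fold), and 1.67 with an offset of 50. Stimulation lowered Emilin2 in Th2 cells (−1.48, adjusted p 9.2e-04), by 0.96 in WT, not called with WT arrays alone (adjusted p 0.138), and by 2.00 in BAF180-deficient cells. It also lowered Emilin2 in naïve cells (−1.35, adjusted p 0.00131, at least 1.94-fold, and −0.70 with an offset of 50), where the myeloid sums fell as well. WT cells ordered resting Th2, resting naïve, stimulated Th2, stimulated naïve, with overlap between neighbours among the first 3; in BAF180-deficient cells resting Th2 stood clear, followed by stimulated Th2 and resting naïve, which overlapped, and stimulated naïve. No genotype difference was detectable in resting naïve cells (0.22, SE 0.46), where the arrays varied widely. Emilin2 was not detected in stimulated naïve cells, so the −0.05 there could not show one. Its nearest genes were Mocos, Asb2 and Rab31 (r 0.81 each).

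Gnaz encodes the pertussis toxin-insensitive Gα subunit that inhibits adenylyl cyclase, and it was detected in resting Th2 cells alone. Values there were 4.69, 4.53 and 4.65 in WT, detected on 2 of 3 arrays, and 5.40, 5.02 and 5.53 in BAF180-deficient cells, detected on all 3. No other group had a detected array. The genotypes did not overlap in resting Th2 cells (0.69 log2, 1.62-fold), and differed by 0.20 (SE 0.12) in stimulated Th2 cells and by 0.00 and −0.04 in naïve cells before and after stimulation. Gnaz passed the filter and was chosen through resting Th2 cells alone, which sets the direction of its comparisons of states, so these are given without a p. Resting Th2 cells stood 0.65 log2 above resting naïve (SE 0.08, at least 1.1-fold) and 0.72 above stimulated naïve cells (at least 1.26-fold), and stimulated Th2 cells 0.55 below them (at least 1.24-fold). An offset of 50 gave 0.29, 0.31 and −0.25. No step is given for WT, whose resting Th2 signals lay near the lowest detected signals of the other WT arrays (4.57 to 5.02). In BAF180-deficient cells the step from naïve to Th2 was 1.00 and that from resting to stimulated Th2 −0.80. Both are against signals below detection and set no exact size. Resting Th2 held the only detected arrays in both genotypes, and in BAF180-deficient cells it stood first without overlap. In WT no rank is read, and the signals below detection are not ordered. Its nearest genes were Col18a1 (r 0.90), Ubtd1 (0.88) and Hbs1l (0.86), values that mostly set resting Th2 cells against signals below detection.

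Adcy6, an adenylyl cyclase that makes cAMP and is inhibited by Gαi proteins, went the other way between genotypes. Resting naïve cells gave 6.50, 6.37 and 6.36 in WT and 5.75, 6.19 and 6.04 in BAF180-deficient cells, and resting Th2 cells 6.21, 6.27 and 6.02 against 5.25, 5.56 and 4.85. Stimulated naïve cells gave 5.24, 5.43 and 5.28 against 5.10, 5.33 and 4.75. After PMA and ionomycin Adcy6 was not detected in WT Th2 cells and was detected on 1 BAF180-deficient array. BAF180-deficient values were lower without overlap in both resting states: by 0.94 log2 in Th2 cells (1.92-fold), by which the gene was chosen, and by 0.42 in naïve cells (SE 0.16, p 0.0197, limma adjusted p 0.615), which was not called. In stimulated naïve cells the difference was −0.26 with overlap, and in stimulated Th2 cells 0.03.

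Stimulation lowered Adcy6 in both cell types: it fell by 1.01 log2 in naïve cells (SE 0.12, adjusted p 2.3e-07) and by 1.13 in Th2 cells (adjusted p 1.1e-07), with no overlap between resting and stimulated arrays. With an offset of 50 these were −0.61 and −0.59. In Th2 cells the step was −1.61 in WT and −0.64 in BAF180-deficient cells. Stimulated Th2 cells were detected on 0 and 1 arrays, so neither step is an exact size. Resting Th2 cells were 0.51 below resting naïve cells (adjusted p 0.00113), with steps of −0.24 in WT and −0.77 in BAF180-deficient cells. Z-score normalization ended the call (−0.11, adjusted p 0.268), and so did WT arrays alone (adjusted p 0.276). This average holds the Th2 values by which Adcy6 was chosen. Resting Th2 cells were 0.51 above stimulated naïve cells (adjusted p 0.00161, and 0.30 with an offset of 50), by 0.85 in WT and 0.16 in BAF180-deficient cells. With BAF180-deficient arrays alone this was not called (adjusted p 0.6). In each genotype the order was resting naïve, resting Th2, stimulated naïve, stimulated Th2, with overlap only between the middle 2 in BAF180-deficient cells. Gimap8, Acss2 and Rnf214 ran closest (r 0.93 each), and among the chosen genes Hsd17b11 (0.83) and, inversely, Lif (−0.89).

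**Figure D2:**
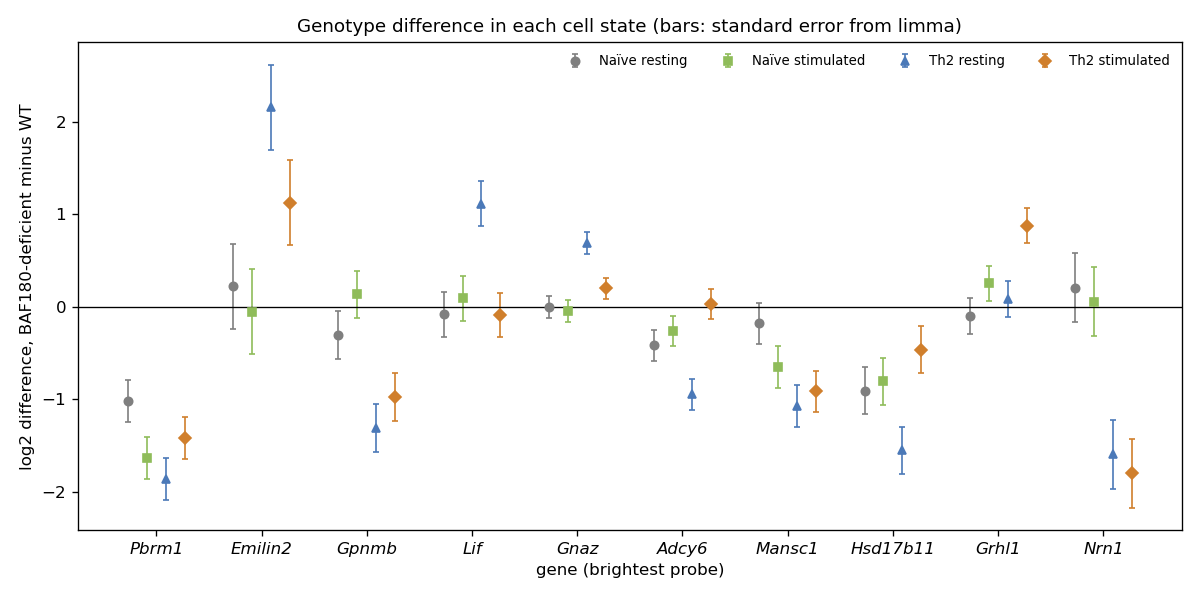
Log2 difference, BAF180-deficient minus WT, of each gene in the 4 states, with its SE. Among the chosen genes Emilin2 in resting Th2 cells (2.16) and Nrn1 in stimulated Th2 cells (−1.80) lie farthest from 0, in the states used for the choice. Pbrm1, which is not a chosen gene, differed by −1.86 in resting Th2 cells.

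Gpnmb, a transmembrane glycoprotein of lysosomes and the cell surface, was the gene most closely tied to growth as Th2 cells. Th2 cells at rest read 9.10, 9.82 and 9.71 in WT and 8.61, 7.83 and 8.28 in BAF180-deficient cells, and after stimulation 8.39, 8.81 and 8.17 against 7.67, 7.09 and 7.69. Naïve values lay near the limit of detection: 4.92, 5.37 and 4.68 against 4.41, 4.57 and 5.08 at rest, and 4.59, 4.69 and 5.02 against 5.24, 4.77 and 4.69 after stimulation. BAF180-deficient Th2 cells were lower in both states without overlap (1.31 log2, 2.47-fold at rest; 0.98, 1.97-fold stimulated), while naïve cells overlapped (−0.30 and 0.13, SE 0.26). Resting Th2 cells exceeded resting naïve cells by 4.05 log2 (SE 0.18, 16.6-fold, limma adjusted p 2.3e-13) and stimulated naïve cells by 4.06 (16.7-fold, adjusted p 1.2e-12), the largest of the 9 genes in each comparison.

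PMA and ionomycin lowered Gpnmb by 0.92 (adjusted p 3.3e-04), and stimulation of naïve cells left it where it was (−0.01, adjusted p 0.98). In WT the order was resting Th2, stimulated Th2, resting naïve, stimulated naïve, with overlap between the naïve states alone; in BAF180-deficient cells the naïve states changed places. A second Gpnmb probe, not detected in naïve cells, gave 5.08, 5.80 and 5.49 against 4.83, 4.67 and 4.55 in resting Th2 cells. Gpnmb is also made by macrophages. Of the myeloid markers Adgre1 was, like Gpnmb, higher in resting Th2 than in stimulated naïve cells (1.66), but all 11 kept were lower in resting Th2 than in resting naïve cells, and their part in the levels of Gpnmb was not tested. Fads2, Bcap31 and Ecm1 ran closest (r 0.94 each), and of these Ecm1 was higher in resting Th2 than resting naïve cells by 5.11 log2.

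Mansc1, a single-pass membrane protein with a MANSC domain and no established function, was dim, and lower in BAF180-deficient than in WT Th2 cells. In Th2 cells WT gave 6.13, 5.63 and 5.47 at rest and 5.24, 5.18 and 5.31 after stimulation, against 4.67, 4.49 and 4.85, and 4.22, 4.20 and 4.57. In stimulated naïve cells WT gave 4.94, 4.82 and 5.13, all detected, while BAF180-deficient cells were not detected. WT was higher without overlap in these 3 states: by 1.07 log2 (2.10-fold) and 0.91 (1.88-fold) in Th2 cells, by which the gene was chosen, and by 0.65 in stimulated naïve cells (SE 0.22, p 0.00876, limma adjusted p 1, at least 1.26-fold), which was not called. Resting naïve values, 5.40, 4.45 and 4.87 against 4.60, 4.34 and 5.24, overlapped (−0.18). Over all arrays Mansc1 ran closest to Pbrm1 (r 0.74), Pdlim1 (0.70) and Gpr171 (0.68), to which the genotype differences by which it was chosen contribute; Gpr171 was lower in BAF180-deficient cells by 0.83 and 0.81 in naïve cells (resting, stimulated) and by 0.80 and 0.78 in Th2 cells.

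The comparisons of states lay near the threshold for Mansc1. It was higher in resting Th2 than in resting naïve cells by 0.39 log2 (SE 0.16, adjusted p 0.0481; 0.84 in WT, −0.06 in BAF180-deficient cells), and fell by 0.42 with PMA and ionomycin (adjusted p 0.0423). Each call was lost on leaving out any of 8 arrays, the first furthest without WT array B of resting naïve cells (0.27, adjusted p 0.152) and the second without WT array A of resting Th2 cells (−0.32, adjusted p 0.134). Both were lost with no filter (adjusted p 0.0811 and 0.0805), and the first with quantile normalization alone (0.0529). Against stimulated naïve cells resting Th2 cells were higher by 0.57 (adjusted p 0.00759, and 0.29 with an offset of 50). The step was 0.78 in WT, and the 0.36 in BAF180-deficient cells is against signals below detection and sets no exact size. Stimulated and resting naïve cells did not differ (−0.18, adjusted p 0.348). WT ordered resting Th2, stimulated Th2, stimulated naïve, resting naïve, with overlap between the naïve states. Array A of WT resting naïve cells (5.40) also lay above every WT stimulated Th2 value. BAF180-deficient cells gave means of 4.73, 4.67, 4.33 and 4.31 in resting naïve, resting Th2, stimulated Th2 and stimulated naïve cells, each overlapping the next and detected on 1, 2, 1 and 0 arrays.

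Nrn1 encodes neuritin, a GPI-anchored protein first known from neurons, and was detected on all 24 arrays. Stimulated Th2 cells gave 8.28, 9.11 and 8.16 in WT against 6.86, 5.98 and 7.31 in BAF180-deficient cells, and resting Th2 cells 7.74, 7.75 and 5.99 against 5.45, 5.55 and 5.70. WT Th2 cells were higher without overlap in each state, by 1.80 log2 after stimulation (3.48-fold) and 1.59 at rest (3.01-fold), although WT array C at rest lay near the BAF180-deficient values. That array also had the highest B cell sum of the WT Th2 arrays (1180). Naïve cells of the 2 genotypes overlapped: 7.24, 7.52 and 7.91 against 7.83, 7.44 and 8.03 at rest, and 6.12, 6.09 and 6.02 against 6.33, 6.17 and 5.90 after stimulation (0.21 and 0.06, SE 0.37).

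Nrn1 fell by 1.56 log2 on stimulation of naïve cells (SE 0.26, limma adjusted p 3.5e-05, 2.94-fold, no overlap, and −1.04 under Z-score normalization). It rose by 1.25 on stimulation of Th2 cells (adjusted p 6.0e-04, 2.38-fold). These 2 comparisons differ in cell type, stimulus and duration, so the opposite directions cannot be assigned to any 1 of them. Resting Th2 cells were 1.30 below resting naïve cells (adjusted p 3.5e-04, and −0.74 under Z-score normalization), with steps of −0.40 in WT and −2.20 in BAF180-deficient cells. This average holds the Th2 values by which Nrn1 was chosen, and with WT arrays alone it was not called (limma adjusted p 0.447). Against stimulated naïve cells the average of 0.26 (adjusted p 0.534) combined steps in opposite directions, 1.08 in WT and −0.57 in BAF180-deficient cells, and without WT array C of resting Th2 cells the difference was 0.55 (adjusted p 0.0463). WT ordered stimulated Th2, resting naïve, resting Th2, stimulated naïve, and BAF180-deficient cells resting naïve, stimulated Th2, stimulated naïve, resting Th2. Resting Th2 overlapped both of its neighbours in WT, and stimulated Th2 overlapped stimulated naïve in BAF180-deficient cells. Ccl5 (r 0.79), Arhgef3 and Il18 (0.71 each) ran closest.

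Hsd17b11, a short-chain dehydrogenase of lipid droplets listed under its older symbol Dhrs8, had a lower mean in BAF180-deficient cells in each state, with overlap in stimulated Th2 cells. Resting naïve cells gave 7.51, 7.66 and 8.23 in WT against 6.68, 7.03 and 6.99, and stimulated naïve cells 5.59, 5.34 and 5.38 against 5.0, 4.23 and 4.67. Resting Th2 cells gave 5.90, 6.22 and 6.70 against 4.40, 4.49 and 5.29, and stimulated Th2 cells 4.69, 5.04 and 5.19 against 4.33, 4.37 and 4.85. WT stood higher without overlap in every state but stimulated Th2, where the difference was −0.46 and the groups overlapped. In resting Th2 cells, by which the gene was chosen, the difference was −1.55 log2 (2.93-fold).

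The naïve difference of Hsd17b11 could be tested: −0.90 log2 at rest (SE 0.26, limma adjusted p 0.299, exact permutation p 0.1, two-sided, the lowest that 3 arrays against 3 allow) and −0.80 after stimulation (p 0.00503, adjusted p 1). The first met the criteria for a call, and it was the 1 call among the 9 genes in naïve cells. It lay at the edge: 6 of 16 alternatives called it, and it was lost without BAF180-deficient array A, B or C (adjusted p 0.541, 0.386 and 0.319) or WT array C (0.333), with Z-score normalization (0.58), with normalization and model within the state or a model of its 6 arrays alone (1 each), with no filter (0.386) or a filter of 3 arrays (0.302), and at adjusted p below 0.05. WT array C had the highest Hsd17b11 value of all arrays (8.23) and the highest myeloid sum (13400), and the part of myeloid cells in the difference was not tested. The direction was the same in every alternative, and each BAF180-deficient array lay below each WT array.

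Stimulation of naïve cells lowered Hsd17b11 (−2.32 log2, SE 0.18, 4.98-fold, adjusted p 8.4e-10, and −1.49 under Z-score normalization). Stimulation of Th2 cells lowered it too (−0.75, adjusted p 0.00202, and −0.43 with an offset of 50). There WT fell by 1.30 and BAF180-deficient cells, already near the limit of detection, by 0.21. Resting Th2 cells were 1.85 below resting naïve cells (3.61-fold, adjusted p 4.0e-08; −1.11 under Z-score normalization), while the dimmer Hsd17b11 probe, detected on 5 arrays, had the opposite sign (0.19, adjusted p 0.361). Against stimulated naïve cells they were 0.46 higher (0.84 in WT, 0.09 in BAF180-deficient cells), not called in the main model (adjusted p 0.054). It was called with the letters as a replicate block (adjusted p 0.0175), a random block for the mouse (0.0449) or a filter of 3 arrays (0.0463). The same value was called without BAF180-deficient array A (0.54, adjusted p 0.0336) or B (0.52, 0.0453) or WT array A (0.56, 0.0275) of resting Th2 cells, or BAF180-deficient array A of stimulated naïve cells (0.55, 0.0264). The order was resting naïve, resting Th2, stimulated naïve, stimulated Th2 in both genotypes, with no overlap in WT and overlap among the last 3 in BAF180-deficient cells. Asah1 (r 0.92), Asap1 and Zcchc18 (0.91 each) ran closest.

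Grhl1, a grainyhead family transcription factor listed under its older symbol Tcfcp2l2, rose with PMA and ionomycin. Stimulated Th2 cells gave 5.56, 5.31 and 6.22 in WT and 6.49, 6.60 and 6.63 in BAF180-deficient cells, against 4.64, 4.43 and 4.46, and 4.39, 4.63 and 4.76 at rest. The genotypes separated without overlap after stimulation (0.88 log2, 1.84-fold), by which the gene was chosen, and overlapped at rest (0.09). Naïve cells overlapped as well, 5.46, 5.38 and 5.16 against 5.46, 5.28 and 4.96 at rest and 5.24, 4.95 and 5.01 against 5.20, 5.14 and 5.62 after stimulation (−0.10 and 0.25, SE 0.19).

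Grhl1 rose by 1.58 log2 on stimulation of Th2 cells (SE 0.14, 2.99-fold, limma adjusted p 7.4e-09, and 0.88 with an offset of 50), by 1.19 in WT and 1.98 in BAF180-deficient cells. At rest Th2 cells were detected on 1 WT and 2 BAF180-deficient arrays, so these are not exact sizes. The dimmer Grhl1 probe was detected on 1 array, of BAF180-deficient stimulated Th2 cells. Its means in Th2 cells were 4.25 (WT) and 4.26 (BAF180-deficient) at rest and 4.31 and 4.53 after stimulation. On stimulation of naïve cells Grhl1 did not move (−0.09, adjusted p 0.604). Resting Th2 cells had the least, 0.73 below resting naïve cells (adjusted p 1.4e-04; −0.32 under Z-score normalization) and 0.64 below stimulated naïve cells (adjusted p 7.6e-04; −0.30 with an offset of 50), without overlap. In both genotypes stimulated Th2 came first and resting Th2 last, and the naïve states between them overlapped each other. Stimulated Th2 overlapped resting naïve in WT and stood clear in BAF180-deficient cells. Tank, Tnf and Pdp1 ran closest (r 0.88 each).

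**Figure D3:**
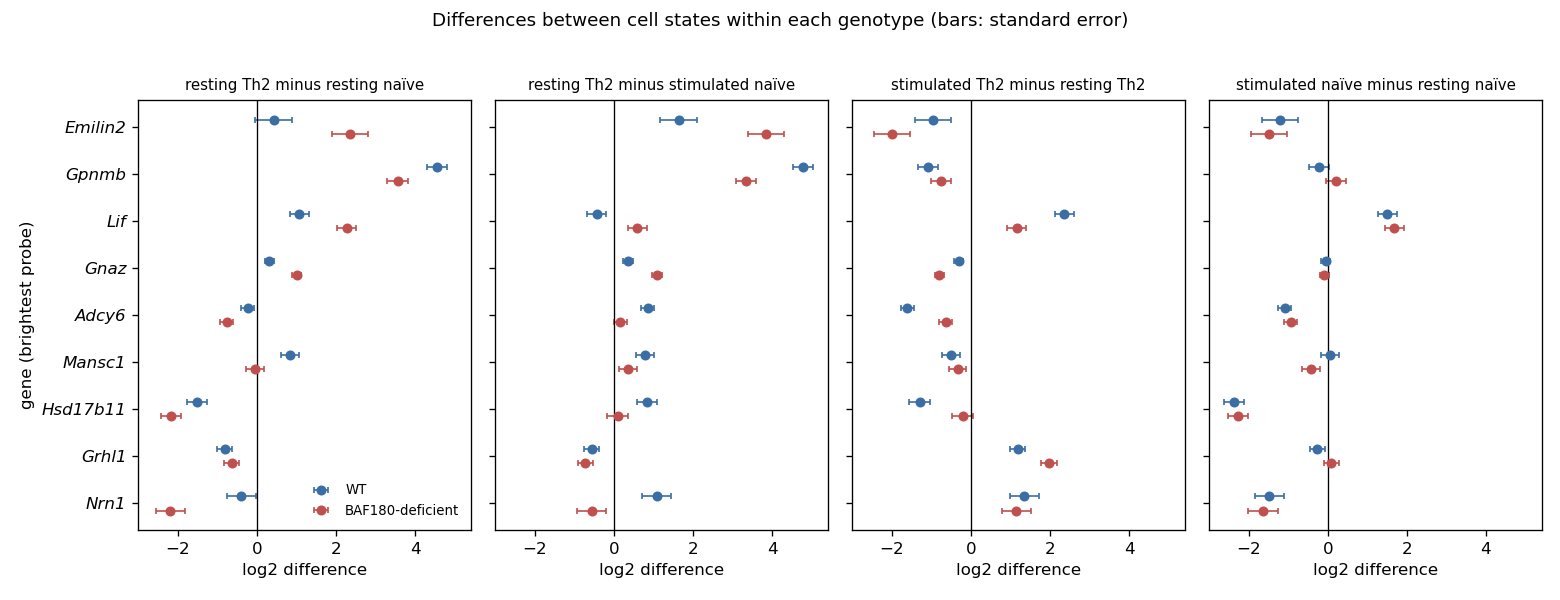
Log2 difference of each gene in the 4 comparisons of states, for WT and BAF180-deficient cells apart, with its SE. Averages over genotypes are not drawn. On these averages Gpnmb has the largest difference between resting Th2 and resting naïve cells (4.05). Hsd17b11 has the largest fall on stimulation of naïve cells (−2.32). The WT points of Gnaz rest on signals near or below the limit of detection and are not read.

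Counted together without Gnaz and averaged over genotypes, 8 of 8 genes differed between resting Th2 and resting naïve cells at limma adjusted p below 0.05, Mansc1 at the threshold: Emilin2, Lif, Gpnmb and Mansc1 were higher in Th2 cells and Adcy6, Hsd17b11, Grhl1 and Nrn1 lower, beside 27.2% of all probes higher and 22.5% lower. The average holds the Th2 values that chose the genes, so this count is partly set by the choice. With WT arrays alone Emilin2 (0.42), Adcy6 (−0.24) and Nrn1 (−0.40) were not called, nor was Mansc1 (−0.06) with BAF180-deficient arrays alone. Against stimulated naïve cells 4 were higher (Emilin2, Gpnmb, Adcy6, Mansc1) and Grhl1 lower on the average over genotypes, beside 16.5% and 17.3%. PMA and ionomycin raised 3 (Lif, Grhl1, Nrn1) and lowered 5, beside 18.3% and 20.6%. Stimulation of naïve cells raised Lif and lowered Emilin2, Adcy6, Hsd17b11 and Nrn1, beside 29.3% and 25.7%. On this average Emilin2, Gpnmb and Mansc1 were above both naïve states in Th2 cells at rest and lower after PMA and ionomycin, with the limits given above for Mansc1 and the WT values of Emilin2, whereas Adcy6 and Hsd17b11 fell with each stimulus, Lif rose with each, and Grhl1 and Nrn1 rose with PMA and ionomycin alone. The myeloid and B cell sums were highest in resting naïve cells and so move with each comparison against that state, and their part in these differences was not tested.

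The state with the highest mean was the same in both genotypes for 7 of 9 genes: resting Th2 for Emilin2, Gnaz and Gpnmb, stimulated Th2 for Lif and Grhl1, and resting naïve for Adcy6 and Hsd17b11. For Gnaz it was the only state with a detected array, and the WT signals there lay near the limit of detection. For Nrn1 it was stimulated Th2 in WT and resting naïve in BAF180-deficient cells. For Mansc1 it was resting Th2 in WT, and in BAF180-deficient cells its signals lay too near the limit of detection for an order to be read. No gene was highest in stimulated naïve cells.

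Between genotypes, a call used the limits of the study's methods on other inputs: a Z-ratio beyond 1.5 (here the log2 difference over the SD of all differences), FDR below 0.3 (limma, Benjamini-Hochberg), p below 0.05 and mean signal above 0, which every probe meets on this scale. In Th2 cells, whose values chose the genes, 7 lay past these limits at rest and 2 after stimulation (3 with the replicate block, which adds Mansc1). The share of all probes past them was 0.0842% and 0.0913%; the choice sets the counts of the chosen genes, and nothing is read from them. As a description of where the limit fell, the FDR just inside it was 0.212 for Emilin2 and 0.218 for Lif at rest and 0.229 for Grhl1 after stimulation, and just outside it 0.356 for Nrn1 at rest. In naïve cells, whose values did not enter the choice, 1 of 9 met them at rest (Hsd17b11) and 0 of 9 after stimulation, beside 0.681% and 0.112% of all probes. Naïve and Th2 arrays share mice, so the naïve values are not fully independent of the choice. With limma alone, the naïve differences of 2 of 9 had unadjusted p below 0.05 at rest (Adcy6, Hsd17b11) and 2 after stimulation (Mansc1, Hsd17b11), beside 6.83% and 2.25% of all probes. In naïve cells the genotypes did not overlap for 2 of 9 genes at rest and 2 after stimulation, beside 7.99% and 6.46% of all probes.

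Whether stimulation changed naïve cells differently by genotype was tested as an interaction. At adjusted p below 0.05 limma called 0 of the 9 genes. Of these genes 0 had unadjusted p below 0.05, beside 2.31% of all probes. Of all probes 0.00702%, the single gene 4930486L24Rik (1.41, limma adjusted p 0.0433), were called. That call was lost with the letters as a replicate block, where the interaction called 0 probes. It was also lost with Z-score normalization, quantile normalization alone, a larger offset, no filter or a stricter filter. A random block for the mouse still called 1 probe. The 97 probes called between genotypes in resting naïve cells became 616 when WT array C, the array with the high myeloid sum, was left out, with 0 of the 9 genes called.

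Of 42 kept relatives of the chosen genes, in 6 lists, 0 met the criteria between genotypes in any state, beside 0.0842% to 0.681% of all probes, shares too small for a count of 42 genes to tell the relatives from other genes. In the IL-6 family (12 kept of 14), 2 were higher and 5 lower in resting Th2 than resting naïve cells (median −0.26, all probes 0.03; 27.2% of all probes higher, 22.5% lower), with Il6ra (−2.48) and Il11ra1 (−2.42) farthest down. Stimulation raised 2 and lowered 5 of them in naïve cells (all probes 29.3% and 25.7%) and raised 1 and lowered 3 in Th2 cells (18.3% and 20.6%), and resting Th2 against stimulated naïve cells gave 1 and 1 (16.5% and 17.3%). Osm, the closest relative of Lif among the ligands, was higher in resting Th2 than in stimulated naïve cells (1.45) and fell with PMA and ionomycin (−1.32), where Lif rose.

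In the cAMP pathway, where Gnaz and Adcy6 act, 20 of 31 genes were kept. Stimulation lowered 13 and raised 2 in naïve cells (median −0.48, all probes 0.02; 25.7% of all probes lower, 29.3% higher) and lowered 8 and raised 1 in Th2 cells (median −0.16, all probes 0.00; 20.6% lower, 18.3% higher), with Prkacb (−2.20 and −1.82) and Pde4d (−2.12 and −1.89) falling the most. Resting Th2 cells were higher for 5 and lower for 8 than resting naïve cells (Crem 2.15, Pde1b −1.83; all probes 27.2% and 22.5%), and higher for 7 and lower for 0 than stimulated naïve cells (16.5% and 17.3%). The largest genotype difference was Crem in resting Th2 cells (0.87), not called.

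Of the other lists, the EMILIN and multimerin family kept only Emilin1 of 4 genes, and Pmel and Nrn1l only Pmel, with no call in any comparison. Of 5 grainyhead relatives 2 were kept, and Ubp1 was lower in resting Th2 than resting naïve cells (−0.78, adjusted p 5.0e-06) and fell on stimulation of naïve cells (−0.90, adjusted p 4.4e-07), where Grhl1 did not move. Of 13 other 17-beta-hydroxysteroid dehydrogenases 6 were kept: 3 were higher and 1 lower in resting Th2 than resting naïve cells (all probes 27.2% and 22.5%), 0 and 1 against stimulated naïve cells (16.5% and 17.3%), and stimulation raised 4 and lowered 1 in naïve (29.3% and 25.7%) and raised 3 and lowered 1 in Th2 cells (18.3% and 20.6%). Hsd17b12 rose with PMA and ionomycin (1.62) and Hsd17b4 fell (−1.37).

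PMA and ionomycin act in T cells through AP-1 and NFAT, so the 250 bases before the start of Lif and Grhl1, which rose with them, and of Gpnmb, which fell, are shown where the mouse promoter table holds them. Capitals mark the AP-1 site TGANTCA and the NFAT core GGAAA on either strand, motifs chosen after the values were seen. Of 32851 promoters 6.75% hold the first and 55.6% the second, so a match is a description only. Lif has TGACTCA 228 bases before the start and an NFAT core at 129, the first Grhl1 promoter has neither and the second 1 NFAT core, and Gpnmb has 2 NFAT cores. All are on the plus strand of GRCm38.p6: Lif at chr11:4257318-4257567, Grhl1 at chr12:24572037-24572286 and chr12:24580469-24580718, and Gpnmb at chr6:49036268-49036517. Of the others that fell, Hsd17b11 (chr5:104021797-104022046, minus strand) has 2 NFAT cores and each of 2 Emilin2 promoters 1, with no AP-1 site. The CRE TGACGTCA, held by 1.55% of all promoters, is in none of the 7 promoters of the chosen genes. Gnaz, Adcy6, Mansc1 and Nrn1 are not in the table.
Lif: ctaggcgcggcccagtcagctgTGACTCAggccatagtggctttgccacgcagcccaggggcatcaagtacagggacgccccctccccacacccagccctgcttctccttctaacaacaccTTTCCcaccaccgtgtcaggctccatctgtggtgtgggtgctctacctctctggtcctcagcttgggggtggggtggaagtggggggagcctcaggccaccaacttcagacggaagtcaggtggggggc
Grhl1 first: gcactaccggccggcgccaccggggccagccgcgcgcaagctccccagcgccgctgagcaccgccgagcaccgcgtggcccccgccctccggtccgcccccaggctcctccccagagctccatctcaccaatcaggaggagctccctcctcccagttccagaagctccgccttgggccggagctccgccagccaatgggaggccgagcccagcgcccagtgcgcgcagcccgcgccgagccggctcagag
Grhl1 second: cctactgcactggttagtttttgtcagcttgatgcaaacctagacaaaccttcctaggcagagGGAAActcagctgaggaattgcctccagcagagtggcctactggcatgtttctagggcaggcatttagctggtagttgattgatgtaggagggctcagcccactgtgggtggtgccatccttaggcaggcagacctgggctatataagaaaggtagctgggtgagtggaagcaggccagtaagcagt
Gpnmb: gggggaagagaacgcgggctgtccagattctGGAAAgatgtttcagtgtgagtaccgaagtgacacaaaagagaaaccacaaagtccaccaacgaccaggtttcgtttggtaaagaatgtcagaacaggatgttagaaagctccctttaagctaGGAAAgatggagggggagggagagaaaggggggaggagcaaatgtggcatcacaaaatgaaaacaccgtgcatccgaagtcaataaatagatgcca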

How the data were processed

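RNA from 24 samples was hybridized to Illumina MouseRef-8 v2 arrays. The authors exported the deposited intensity of each probe from GenomeStudio without normalization (1.6.0 per the labels; the methods name another version), with the deposited detection p-value beside it. Here intensities were background corrected with the detection p-values, quantile normalized and log2 transformed by neqc (offset 16; limma 3.58.1, R 4.3.3). The analysis kept each probe that passed a detection p of 0.02 on 1 or more arrays (14246 probes, 10418 genes; 8047 to 10689 probes detected per array). One limma model with 8 group means gave all comparisons (residual df 16, total 20.3 after moderation; Benjamini-Hochberg over kept probes, two-sided), with code tested on simulated data. Genotype differences were called by 4 criteria with the limits of the methods, applied to the limma values rather than to the authors' Z-scores, and comparisons of states at adjusted p below 0.05.

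Probes were named by current gene symbols, and 2 of the 9 genes stand under older ones. The members and lists were chosen with earlier results of these data known. Genes named are the 9 members with every kept probe, Pbrm1, the 3 genes that correlate best with each member, their relatives and cell type markers. Kept were 1 of 3 Adcy6, 1 of 2 Mansc1, 2 of 3 Hsd17b11 and 3 of 4 Gpnmb probes. The other probes of these genes were detected on no array, so Adcy6 and Mansc1 each rest on 1 probe. Relatives are the IL-6 family, cAMP pathway, EMILIN and multimerin family, grainyhead family, 17-beta-hydroxysteroid dehydrogenases, Pmel and Nrn1l. Markers are those of T cells, naïve, Th2, activated, regulatory T, myeloid, dendritic, B cells, CD8 and NK, basophil and mast. Of each list those with the largest differences are named.

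The methods describe 3 pairs of RNA from WT and BAF180-deficient cells. Deviations from the group means of arrays with the same letter and state correlated at 0.301 (A), 0.136 (B) and 0.516 (C) between genotypes, pooled over states, so an alternative held the letters as a block; the main model holds none. Alternatives covered normalization, offset, filter, replicate and mouse blocks, each genotype alone, the rule for a call, each array left out and each other kept probe.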

Additional observations from a re-analysis of the deposited data

Results flagged for a closer look

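Lif differed between the genotypes in the comparison of resting Th2 with stimulated naïve cells. Its mean was lower in resting Th2 cells by 0.44 log2 in WT (−0.44) and higher by 0.58 in BAF180-deficient cells (0.58). It was singled out because the differences between arrays of the same letter were all negative in WT and all positive in BAF180-deficient cells. For A, B and C they were −0.10, −0.12 and −1.10 against 0.43, 0.19 and 1.13. No label says that a letter marks the same mouse in each state, so the consistency by letter rests on an assumed pairing. Taken without the letters, resting Th2 and stimulated naïve values overlapped in each genotype. Array C carried much of both means, which were −0.11 and 0.31 without it. The difference was not tested. Lif was chosen by its genotype difference in resting Th2 cells, which enters this comparison, so the contrast between genotypes is partly set by the choice.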

How the results depend on the processing

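With 3 arrays per group and members near the FDR limit of 0.3, calls between genotypes depended on the processing. Of 1416 values of the 9 genes under alternatives, 1265 were counted as unchanged. Another 61 lost and 11 gained a call, 47 changed sign and 32 untested values moved by more than the SD of replicates. Outside the genotype differences in Th2 cells, unchanged means the same direction and side of the threshold. For those untested differences it means a move within the SD of replicates, whatever the call. Their sign changes were counted only where the main value was called, and their lost calls are not among the 61. With normalization and model within the state, members called in resting Th2 cells went from 7 to 0. Of 342 counts of calls, 249 stayed within 1.5 times. Unless the alternative's construction (fewer arrays, another threshold, a log scale compressed by a larger offset) shows it, the cause was not tested. A chip block was not run, because the table names no chip. The low signal of Gnaz, Mansc1 and Grhl1 over background limits what their folds show.

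In the main model 12, 13, 97 and 16 probes were called between genotypes in resting Th2, stimulated Th2, resting naïve and stimulated naïve cells (members 7, 2, 1 and 0). State comparisons called 7074 (resting Th2 against resting naïve), 4817 (resting Th2 against stimulated naïve), 5533 (Th2 stimulation) and 7833 probes (naïve stimulation), with 9, 6, 9 and 5 members (Gnaz, whose direction the choice set, is in the first 3), and the naïve interaction 1 probe.

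With the letters as a replicate block the interaction called 0 probes. The block moved no other count by over 1.5 times; it gained a call for Hsd17b11 between resting Th2 and stimulated naïve cells (0.46) and the call of Mansc1 in stimulated Th2 cells, and changed no other call of a member. A random block for the mouse (correlation 0.0412) moved no count by over 1.5 times and gained the same call of Hsd17b11.

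Z-score normalization called 23 probes in resting Th2, 32 in resting naïve, 5 in stimulated naïve cells and 0 in the interaction, and 0 members in resting naïve cells; Gnaz turned to 0.030 between genotypes in resting naïve cells and Grhl1 to 0.017 on naïve stimulation. Of the calls 56.5% were higher in resting Th2 cells, against 33.3% in the main model, and 0% against 15.4% in stimulated Th2 cells. Quantile normalization alone called 5 probes in stimulated naïve cells (20% higher, against 50%) and 0 in the interaction, with Gnaz at 0.019 in resting naïve cells. An offset of 50 called 19 probes in resting Th2 cells and 0 in the interaction (stimulated naïve calls 38.5% higher). No scaling moved the median of all probes by over 0.1.

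Normalization and model within a state called 0 probes in resting naïve, 0 in stimulated naïve, 1 in resting Th2 and 0 in stimulated Th2 cells, with 0 members in resting naïve, 0 in resting Th2 and 0 in stimulated Th2 cells, and Gnaz at 0.0035 in resting naïve cells. A model of only the 6 arrays of a state called 1, 0, 1 and 0 probes in the same order, and 0 members in resting naïve, 0 in resting Th2 and 0 in stimulated Th2 cells.

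No filter called 5 probes in resting Th2, 9 in stimulated naïve cells and 0 in the interaction, with 3 members in resting Th2, 0 in stimulated Th2 and 0 in resting naïve cells. A filter of 3 detected arrays called 0 members in resting naïve cells, 4 probes in stimulated naïve cells and 0 in the interaction. It gained the call of Hsd17b11 between resting Th2 and stimulated naïve cells (limma adjusted p 0.0463).

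Adjusted p below 0.05 as the rule called 4, 4, 15 and 3 probes between genotypes (resting Th2, stimulated Th2, resting naïve, stimulated naïve) and 3, 0 and 0 members in the first 3. The 4 criteria as the rule for states called 1436, 1534, 1480 and 1691 probes and 5, 2, 5 and 3 members in the order above.

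WT arrays alone called 3178 probes between resting Th2 and stimulated naïve cells; Lif was −0.44 there, and Mansc1 0.054 on naïve stimulation. BAF180-deficient arrays alone called 2921 there and 3677 on Th2 stimulation; Mansc1 was −0.059 in resting Th2 against resting naïve cells, Nrn1 −0.57 in resting Th2 against stimulated naïve cells, and on naïve stimulation Gpnmb was 0.21 and Grhl1 0.088. These splits hold the Th2 values that chose the members and are no test of them.

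Dimmer probes of the same genes changed sign in places, for Gpnmb, Hsd17b11 and Grhl1 also where the brightest probe was called. Of Lif, ILMN_1234792 was not called for Th2 against naïve at rest (0.29) and gave −0.14 in stimulated naïve cells and −0.093 for resting Th2 against stimulated naïve cells, and ILMN_3137291 gave −0.10 in stimulated naïve cells. Of Gpnmb, ILMN_2614655 gave 0.0072 in resting naïve, −0.023 in stimulated naïve cells and 0.034 on naïve stimulation, and ILMN_1236420, detected on 1 array, gave 0.10 in resting Th2, −0.15 in stimulated naïve cells, −0.15 for Th2 against naïve at rest and −0.051 for resting Th2 against stimulated naïve cells. Of Hsd17b11, ILMN_2642985 gave 0.19 for Th2 against naïve at rest. Of Grhl1, ILMN_2727118 gave 0.030 in resting naïve, −0.0049 in stimulated naïve cells, 0.025 for Th2 against naïve at rest and 0.047 on naïve stimulation.

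Leaving out 1 array at a time, which leaves 2 in its group, gave the following ranges. Probes called in resting Th2 cells were 2 (without BAF180-deficient array C, and also without WT array B) to 37 (without WT array C). They were 5 to 36 in stimulated Th2, 84 to 616 in resting naïve and 3 to 15 in stimulated naïve cells, and 0 to 3 in the interaction. Members called were 1 to 6 in resting Th2, 0 to 2 in stimulated Th2 and 0 to 1 in resting naïve cells. In resting naïve cells the genotype difference ran from −0.40 to 0.91 for Emilin2, −0.066 to 0.038 for Gnaz, −0.43 to 0.071 for Mansc1 and −0.21 to 0.036 for Grhl1. In stimulated naïve cells it ran from −0.11 to 0.0036 for Emilin2, −0.083 to 0.21 for Lif, −0.035 to 0.26 for Gpnmb and −0.041 to 0.17 for Nrn1. Lif in resting Th2 against stimulated naïve cells ran from −0.057 to 0.21, and Gpnmb on naïve stimulation from −0.092 to 0.091.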
